A study of Mus musculus with 60 samples.

Results

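The BCL2 family decides at the mitochondrial outer membrane whether a cell enters apoptosis, and 10 of its genes, taken by name, are described here out of 47729 mouse genes in the count table. Bim (Bcl2l11), Bad, Bid, Puma (Bbc3), Noxa (Pmaip1), Bax and Bak (Bak1) were counted as the 7 pro-death members, and Bcl2, Bcl-xL (Bcl2l1) and Mcl1 as the 3 survival members. All 10 had counts in both groups of cells.

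The mouse mammary tumor line PyMT-Bo1 carried luciferase (Luc2), H2B-mApple, eGFP and the cell surface marker Thy1.1, and its cells were stained with the membrane dye DiD before intracardiac injection into wild-type C57BL6 female mice 8 to 10 weeks old. The dye is diluted by division, so that at harvest, 11 days later, DiD+ cells (32, the dormant group) were those that had kept it and DiD- cells (28, the proliferative group) those that had lost it. Both groups came from the same femurs and tibias, pooled from 5 mice, were enriched by Thy1.1, were sorted as CD45- cells that excluded the dead-cell stain DAPI, and were placed 1 cell per well, so dead cells of either group are not in the data. No mouse is named for a cell. Each group was therefore treated as 1 sample, no test between groups was made, the differences have no replicate check, and the intervals given are 95% intervals of counting error only (reads carried no molecular identifiers).

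Cells held 2276789 to 7794219 counts (median 4653711) in the DiD+ group and 2624405 to 6199108 (median 4440161) in the DiD- group. Of the tumor markers, Krt8 was counted in all 60 cells and Krt18 in 30 of 32 DiD+ and 28 of 28 DiD- cells, whereas Epcam had no count in any cell and Cdh1 had a count in 1 cell, in the DiD+ group. Luc2 was counted in 31 DiD+ and 28 DiD- cells. DiD+ cell 30 had no count of any of the 4 transgenes (Luc2, mApple, eGFP and Pymt). At least 7 of 13 macrophage markers, each at 10 or more counts, were present in 6 DiD+ cells (cells 19, 21, 24, 30, 37 and 88, by their deposited numbers) and in 1 DiD- cell (cell 84). The summed level of these 13 markers ran from 0 to 20838 CPM (counts scaled to the same library total), with a median of 8.81, in DiD+ cells and from 0 to 1776 CPM, with a median of 0.108, in DiD- cells. It was at most 117 and 73.3 CPM in the others of each group. Other blood cell RNA was also present. The summed level of 7 erythroid markers reached 174258 CPM in DiD+ cells, though at most 53.4 CPM outside those 6 cells, and 46536 CPM in DiD- cells, where cells 44 and 86 held 4 and 5 of the 7 markers. DiD+ cell 29, the highest for Bax and Puma, held 4 of 5 platelet markers. Bim, Puma, Noxa and Mcl1, whose ratios these 7 cells moved most, are given also without them.

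The family works through protein contacts. Bax and Bak are the effectors that, once activated, open the outer membrane and release cytochrome c. Bcl2, Bcl-xL and Mcl1 hold the effectors and their activators in check, and the BH3-only proteins (Bim, Bad, Bid, Puma and Noxa) bind the groove of the survival proteins, some of them also activating Bax and Bak directly. Bim is well known for its control by growth factor and ERK signaling, which lowers its amount, and for the death of epithelial cells that lose attachment. The question put to these cells was how the transcripts of the pro-death and survival members were balanced in cells that kept the dye and in cells that lost it.

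The stretch that pairs these proteins is the BH3 segment, and its coding sequence is shown for 9 of the 10 members, all but Pmaip1, to show what the family shares and how far each lies from Bim. The 45 bases below were read from GRCm38 with the GENCODE M21 annotation, 5′ to 3′ on the coding strand. The capitals mark the codons of the conserved leucine and aspartate, and between them lie 3 codons and then a codon for glycine, alanine or serine.
Bcl2l11: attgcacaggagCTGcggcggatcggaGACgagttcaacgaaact
Bbc3: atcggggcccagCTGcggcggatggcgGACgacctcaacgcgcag
Bad: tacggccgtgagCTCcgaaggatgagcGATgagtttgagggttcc
Bid: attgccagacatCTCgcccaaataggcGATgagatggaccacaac
Bax: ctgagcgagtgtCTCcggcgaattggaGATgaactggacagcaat
Bak1: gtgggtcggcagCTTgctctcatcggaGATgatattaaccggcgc
Bcl2l1: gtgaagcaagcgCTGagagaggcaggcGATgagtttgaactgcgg
Mcl1: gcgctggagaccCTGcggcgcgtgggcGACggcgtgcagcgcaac
Bcl2: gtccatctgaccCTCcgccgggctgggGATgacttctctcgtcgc

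Each of these stretches lies inside 1 coding exon. The Bim stretch is at chr2:128147138-128147182 (exon 3, plus strand), that of Bbc3 at chr7:16313761-16313805 (exon 3, plus strand), and that of Bad at chr19:6950780-6950824 (exon 3, plus strand). The Bid stretch is at chr6:120897283-120897327 (exon 4, minus strand), that of Bax at chr7:45465991-45466035 (exon 3, minus strand), and that of Bak1 at chr17:27022525-27022569 (exon 4, minus strand). The survival members have theirs at chr2:152829691-152829735 for Bcl2l1 (exon 2, minus strand), chr3:95659424-95659468 for Mcl1 (exon 1, plus strand) and chr1:106712569-106712613 for Bcl2 (exon 1, minus strand). Compared base by base with Bim, Bbc3 was equal at 28 of 45 positions, Bad and Bax at 24, Bid and Bak1 at 23, Bcl2l1 and Mcl1 at 20 and Bcl2 at 19. The spacing of leucine, 3 codons, a glycine, alanine or serine codon and aspartate is loose, since 34.04% of 21377 coding genes hold it somewhere, and each of the 9 members shown held it 1 time.

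Bim was the member that stood apart between the groups. Bcl2l11 (ENSMUSG00000027381, chr2:128126038-128162547, plus strand) had 0 CPM in the lowest DiD+ cell, a median of 19.3 CPM and 104 CPM in the highest (cell 76). In DiD- cells the lowest and the median were both 0 and the highest was 17.5 CPM (cell 74). The groups overlapped, but 17 of the 32 DiD+ cells lay above every DiD- cell. With counts summed over each group the level was 21.9 CPM (21.1 to 22.7) for DiD+ and 2.10 CPM (1.85 to 2.38) for DiD-. This was a 10.4-fold difference, or a log2 ratio of 2.88 (2.71 to 3.07) with a pseudocount of 1 CPM, the scale of all log2 ratios here. This ratio was higher than that of 98.6% of the 12432 genes that reached 1 CPM in a group.

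**Figure D1:**
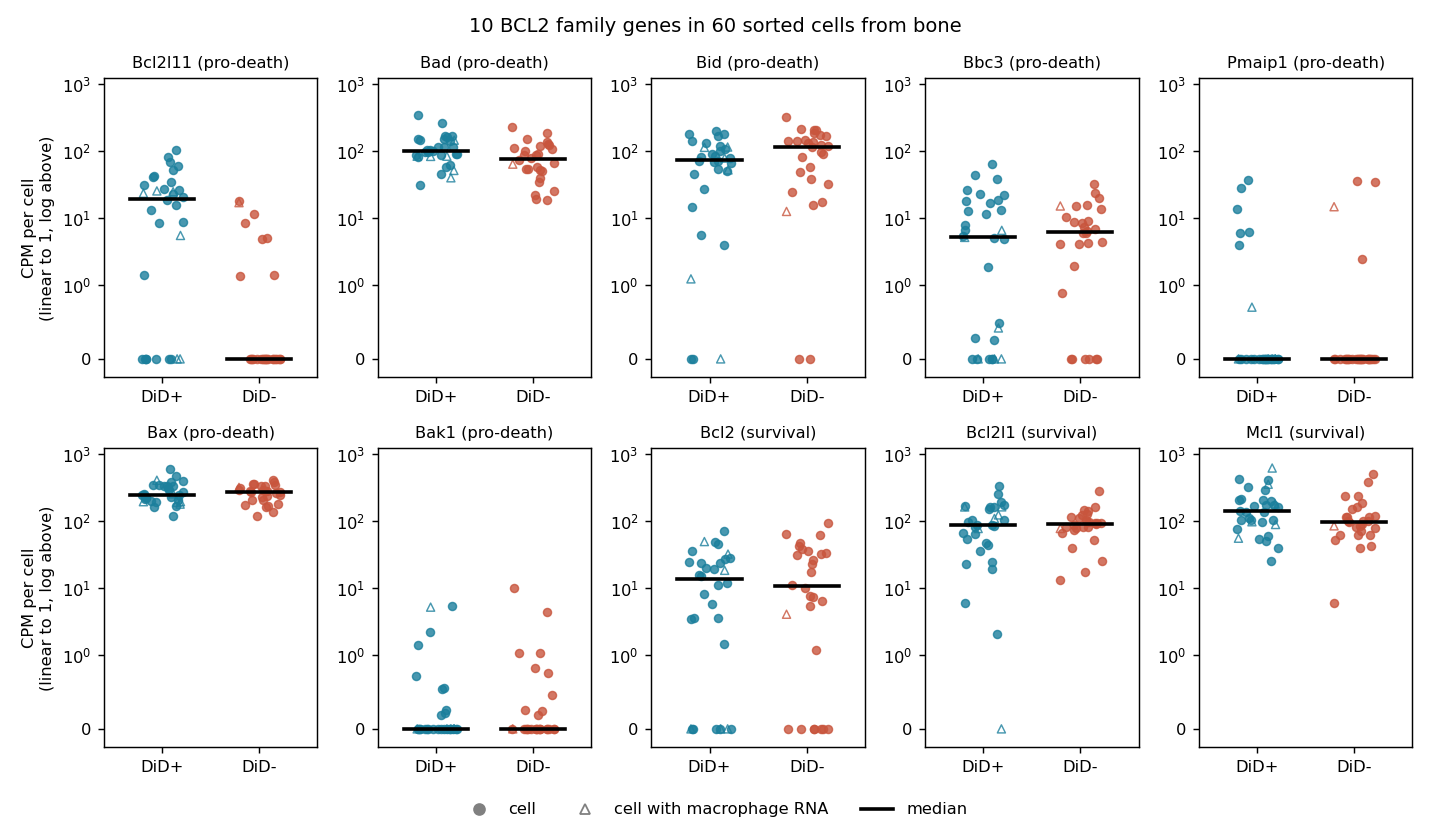
CPM of each of the 10 genes in each cell (vertical axis linear up to 1 CPM and logarithmic above), with DiD+ cells in blue and DiD- cells in red, open triangles for the 7 cells with macrophage RNA and black bars for medians. The Bcl2l11 medians are 19.3 CPM for DiD+ and 0 for DiD-, whereas the other panels overlap over most of their range.

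The difference lay in how many cells had a Bim count as well as in how much. Bcl2l11 was counted in 23 of 32 DiD+ cells (71.9%, exact binomial interval 53.3 to 86.3%) and in 8 of 28 DiD- cells (28.6%, 13.2 to 48.7%). With at least 10 counts required, 22 DiD+ and 6 DiD- cells remained. After each cell was thinned to 2200000 counts, 23 and 8 cells again had a count. Cells with Bim held 7 to 381 counts in the DiD+ and 6 to 56 in the DiD- group, so such thinning could hardly bring any to 0. It therefore says little about detection, and nothing about transcripts lost before sequencing. Among cells with Bim the median was 25.04 CPM (1.41 to 104) in the DiD+ and 6.65 CPM (1.32 to 17.5) in the DiD- group. The 9 DiD+ cells without a count had totals of 2276789 to 5618560, at which 3 counts correspond to 0.534 to 1.32 CPM, so lower levels were not detectable there.

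No single cell carried the Bim difference. The highest DiD+ cell held 11.9% of the group's 3198 counts, and the highest DiD- cell held 22.3% of 251. The log2 ratio ran from 2.75 (without DiD+ cell 83) to 3.10 (without DiD- cell 74) when each cell was left out in turn. Without the 7 cells with macrophage RNA, Bim had 24.3 CPM against 1.76 CPM in DiD- cells (log2 ratio 3.20) and was counted in 19 of 26 and 7 of 27 cells. As a description, Spearman's rho between Bim and total counts was -0.05 over the 60 cells, -0.29 within DiD+ and -0.01 within DiD- cells.

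Of the 9 members that reached 1 CPM in a group, Bim alone was higher in DiD+ cells by 2-fold or more, and none was lower by 2-fold. That is 11.1% of those compared, against 12.1% of all 12432 genes at this minimum, with 4.86% of all genes lower and 16.9% in either direction. For the 8 members that reached 10 CPM the count was also 1, which is 12.5%, against 6.38% of 8814 genes higher, 3.18% lower and 9.55% in either direction. The 9 log2 ratios had a median of 0.04, as did all 12432 genes, and 5 were above 0 and 4 below.

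**Figure D2:**
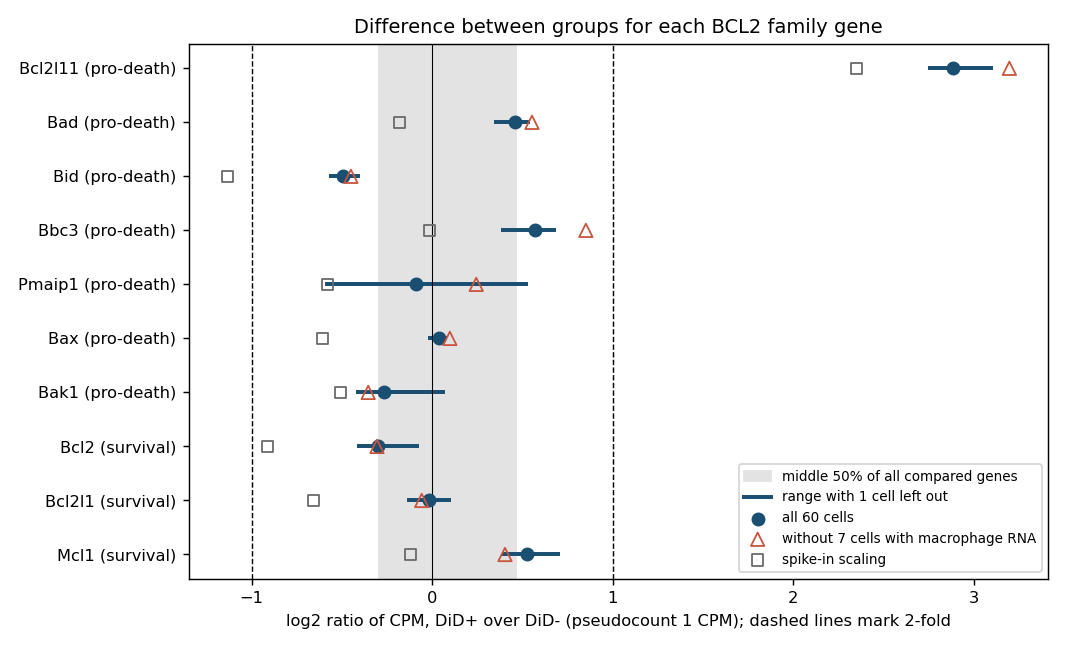
Log2 ratio of CPM in DiD+ over DiD- cells for each gene, with a pseudocount of 1 CPM. Filled circles use all 60 cells, blue lines span the values with 1 cell left out, open triangles leave out the 7 cells with macrophage RNA, open squares use spike-in scaling and the gray band holds the middle 50% of all compared genes. Bcl2l11 is past the 2-fold line at 1 under each, whereas Bid is past the line at -1 under spike-in scaling only.

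The other BH3-only members were within 2-fold, in both directions. Bad (chr19:6941861-6951899, plus strand), a sensitizer that is inactivated by phosphorylation downstream of growth factors, was counted in every cell. Its level ran from 31.2 CPM through a median of 97.7 to 335 (cell 41) in DiD+ cells and from 18.0 through 75.1 to 229 (cell 74) in DiD- cells. Summed, it was at 113 CPM (111 to 114) against 81.7 CPM (80.1 to 83.4), giving 0.46 (0.42 to 0.49) as the log2 ratio, and the groups overlapped with 2 DiD+ cells above all DiD- cells. The gene Gpr137 on the opposite strand shares 524 exon bases with Bad, and the library kit does not mark strand, so reads there cannot be told apart.

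Bid (chr6:120891930-120916853, minus strand), which is cleaved by caspase-8 and so links death receptors to mitochondria, leaned the other way. It ran from 0 through a median of 73.5 to 198 CPM (cell 68) in DiD+ cells and from 0 through 114 to 314 CPM (cell 74) in DiD- cells. Summed levels were 75.3 CPM (73.9 to 76.7) and 106 CPM (104 to 108), giving -0.49 (-0.53 to -0.46) as the log2 ratio, and no DiD+ cell was above the highest DiD- cell. Bid was counted in 29 DiD+ and 26 DiD- cells, and it shares 628 exon bases with Bcl2l13 on the opposite strand.

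Puma, a p53 target encoded by Bbc3 (chr7:16308393-16318205, plus strand), was present in 24 DiD+ and 22 DiD- cells. Its CPM ran from 0 through a median of 5.14 to 63.8 (cell 29) in DiD+ and from 0 through 6.09 to 31.3 (cell 92) in DiD- cells, so the medians and the summed levels leaned in opposite directions. The sums were 11.6 CPM (11.1 to 12.2) and 7.52 CPM (7.03 to 8.02), giving 0.57 (0.46 to 0.68) as the log2 ratio. Without the 7 cells with macrophage RNA it was 0.85, and the medians were 7.08 and 5.93 CPM. Cells 82 and 29 held 292 and 251 of the 1700 DiD+ counts, and leaving out either one gave 0.39. With BASiCS values the ratio was 0.36.

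Noxa, also a p53 target and a binder of Mcl1, was the rarest BH3-only transcript by cells. Pmaip1 (chr18:66458533-66465565, plus strand) was counted in 7 DiD+ cells, up to 36.5 CPM, and in 4 DiD- cells, up to 35.8 CPM, with both medians at 0. The sums of 3.07 CPM (2.80 to 3.37) and 3.33 CPM (3.01 to 3.67) gave a log2 ratio of -0.09 (-0.24 to 0.06). That value rested on few cells, as cell 36 held 40.5% of the DiD+ counts and cell 26 held 47.0% of the DiD- counts. It was -0.58 without cell 36, 0.52 without cell 26 and 0.24 without the 7 cells with macrophage RNA, so no direction can be given for Noxa.

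Of the 2 effectors, Bax was abundant and close in level, and Bak1 was near the limit of detection. Bax (chr7:45461697-45466898, minus strand) ran from 116 through a median of 242 to 592 CPM (cell 29) in DiD+ cells and from 116 through 271 to 408 CPM (cell 92) in DiD- cells. Summed levels were 268 CPM (265 to 271) and 261 CPM (258 to 264), giving 0.04 (0.02 to 0.06) as the log2 ratio, and its sign turned to -0.01 without cell 29. The lowest cells were level, the medians leaned toward DiD- cells, and 2 DiD+ cells lay above the highest DiD- cell. Bak1 (chr17:27019810-27029009, minus strand) had a count in 10 cells of each group but 10 or more counts in only 2 of each. Its sums of 0.459 CPM (0.355 to 0.582) and 0.753 CPM (0.606 to 0.926) were under the 1 CPM minimum and were not compared, and 437 of its exon bases are shared with Ggnbp1 on the opposite strand.

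Among the survival members, Mcl1 was the one with a higher sum in DiD+ cells. Mcl1 (chr3:95658788-95663176, plus strand), a short-lived protein that holds Bim and Bak, ran from 25.2 through a median of 137 to 611 CPM (cell 37) in DiD+ cells and from 5.95 through 96.2 to 491 CPM (cell 71) in DiD- cells. Sums of 177 CPM (174 to 179) and 123 CPM (121 to 125) gave a log2 ratio of 0.52 (0.49 to 0.55), and the groups overlapped over nearly their whole range. The highest cell, 37, is one with macrophage RNA, these 6 DiD+ cells held 25.9% of the group's Mcl1 counts, and the ratio without the 7 such cells was 0.40.

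Bcl-xL and Bcl2 differed little. Bcl2l1 (chr2:152780668-152831728, minus strand) had summed levels of 93.6 CPM (91.99 to 95.1) and 94.8 CPM (93.0 to 96.5), giving -0.02 (-0.05 to 0.02) as the log2 ratio, with cells from 0 through a median of 85.8 to 332 CPM (cell 69) in DiD+ and from 13.2 through 90.6 to 279 CPM (cell 71) in DiD-. The quartiles over cells lay further apart in the DiD+ group, at 45.2 and 160 CPM, than in the DiD- group, at 75.6 and 110 CPM. Bcl2 (chr1:106538178-106714274, minus strand) was counted in 24 DiD+ and 21 DiD- cells, from 0 through 13.4 to 71.04 CPM (cell 76) and from 0 through 10.4 to 91.3 CPM (cell 77). Its sums were 16.3 CPM (15.6 to 16.9) and 20.3 CPM (19.5 to 21.1), giving -0.30 (-0.38 to -0.22) as the log2 ratio, and -0.09 without cell 77. It shares 558 exon bases with the antisense gene D630008O14Rik.

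Levels of different genes were set side by side per kilobase (kb) of exon. In DiD+ cells the order of summed levels was Bax (170 CPM per kb), Mcl1 (51.7), Bad (44.04), Bid (21.2), Bcl2l1 (20.4), Bbc3 (5.48), Bcl2l11 (2.73), Bcl2 (1.78), Pmaip1 (1.13) and Bak1 (0.191). In DiD- cells it was Bax (166 CPM per kb), Mcl1 (35.9), Bad (32.0), Bid (29.96), Bcl2l1 (20.7), Bbc3 (3.54), Bcl2 (2.21), Pmaip1 (1.22), Bak1 (0.313) and Bcl2l11 (0.262). By these union exon lengths Bim stood seventh in DiD+ and last in DiD- cells, and the other 9 kept the same order in both groups. Close neighbors can change places with another length, for which the order was not computed. The longest coding transcript has 2568 bases for Bcl2l1, against 4586 of union exon, but 3418 under both for Mcl1. Neighbors whose quartile ranges over cells overlapped in both groups were Mcl1 and Bad, Bid and Bcl2l1, and Pmaip1 and Bak1. Bim overlapped in this way with Bbc3 above it and Bcl2 below it in DiD+ cells, and with Bak1 in DiD- cells, where Bad and Bid, and Bbc3 and Bcl2, also overlapped. Bax was clear of Mcl1 in both groups and was the highest member in 30 of 32 DiD+ and 26 of 28 DiD- cells.

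**Figure D3:**
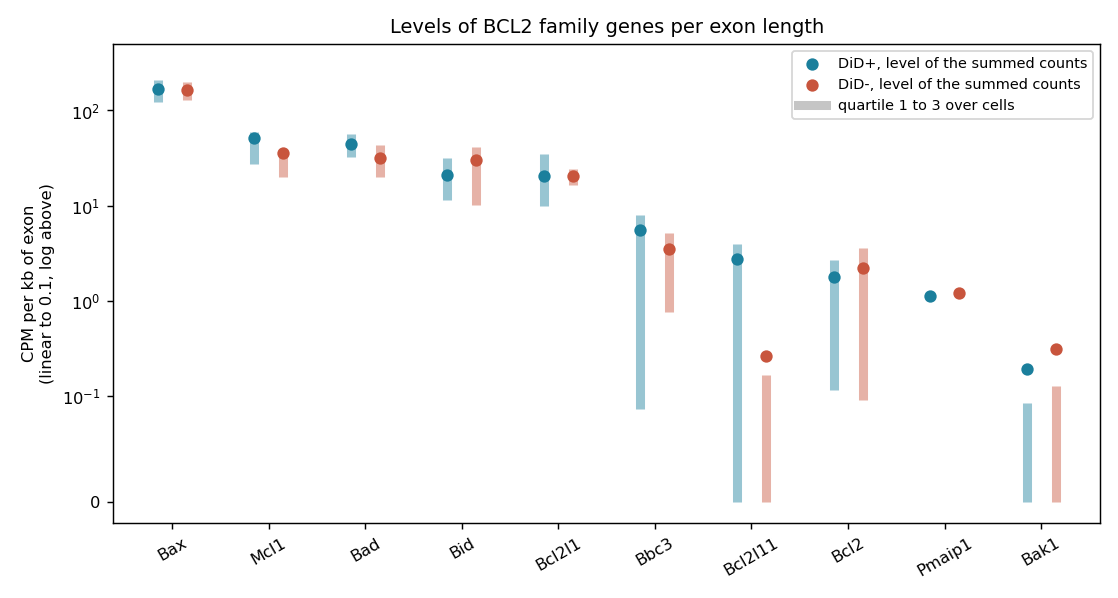
Level of each gene in CPM per kb of exon (linear up to 0.1 and logarithmic above), in order of the DiD+ level. Points are levels of the summed counts and thick bars run from the first to the third quartile over cells (both are 0 for Pmaip1). Bcl2l11 is at 2.73 in DiD+ and 0.262 in DiD- cells, and no other gene differs as far.

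Cell by cell, Bim exceeded Bcl2 per kb in 17 of 32 DiD+ and 4 of 28 DiD- cells, and exceeded Puma in 14 and 1. Per kb of union exon, Mcl1 was the highest survival transcript in 25 of 32 DiD+ and 21 of 28 DiD- cells, which was not computed with another length. Bad exceeded Bid in 25 DiD+ and 16 DiD- cells.

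Summed per kb, the pro-death members came to 245 CPM per kb in DiD+ and 233 in DiD- cells, and the survival members to 73.8 and 58.7. The pro-death sum was thus 3.32 times the survival sum in DiD+ and 3.96 times in DiD- cells, log2 values of 1.72 and 1.97, and the balance of DiD+ over DiD- was -0.25, slightly toward survival. Bax made up 69.5% of the pro-death sum in DiD+ and 71.1% in DiD- cells, and Mcl1 made up 69.97% and 61.1% of the survival sum. These shares hold for union exon lengths and were not computed with the longest coding transcripts, of which that of Bcl2l1 is much shorter. Bim was 3.66% and 0.391% of the BH3-only sum of 74.6 and 66.9 CPM per kb, and equal to 3.69% and 0.445% of the survival sum. The 10.4-fold difference in Bim is therefore small within these sums.

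The balance was not stable. Without the 7 cells with macrophage RNA it was -0.09 (log2 balances of 1.87 and 1.96), and with 1 cell left out it ran from -0.40 (without DiD- cell 71) to -0.14 (without DiD+ cell 37, one with macrophage RNA). Taken instead as the median log2 ratio of the pro-death less that of the survival members, it was 0.27. Among single cells the log2 balance ran from -0.40 (cell 37) through a median of 1.82 to 3.43 (cell 18) in DiD+ cells and from -0.11 (cell 73) through 2.09 to 4.87 (cell 74) in DiD- cells. Survival transcripts exceeded pro-death transcripts in 2 DiD+ cells and 1 DiD- cell, and the groups overlapped throughout. Medians without the 7 cells were 2.01 and 2.05.

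**Figure D4:**
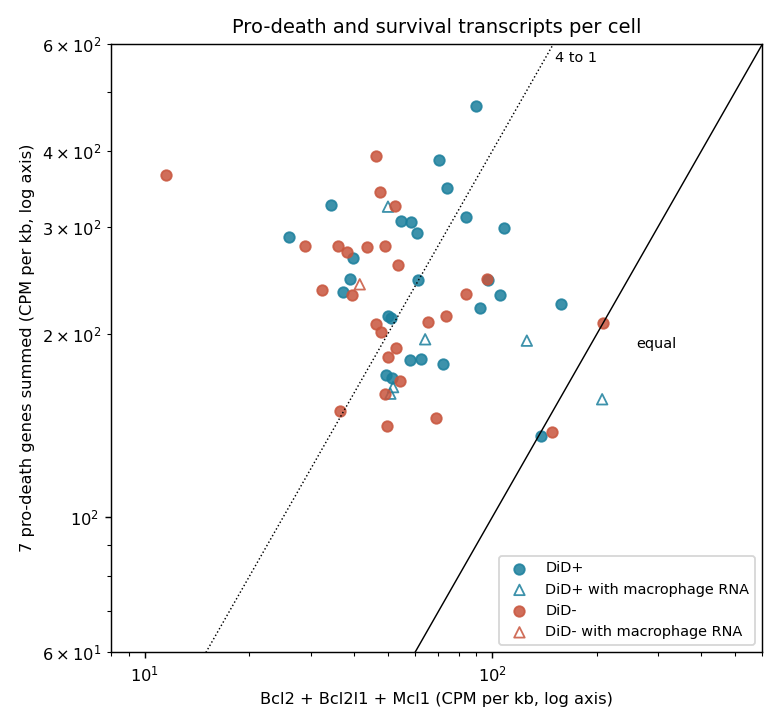
Sum of the 7 pro-death genes against the sum of the 3 survival genes in each cell, both in CPM per kb on log axes, with lines where the sums are equal (solid) and where the pro-death sum is 4 times the survival sum (dotted). DiD+ and DiD- cells mix, most lie above the solid line, and DiD- cell 74 has the lowest survival sum, at 11.5 CPM per kb.

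A few cells stood at the extremes of Mcl1 and of the balance. Cell 74 had 5.95 CPM of Mcl1, the lowest of the 60 cells, 63.3 CPM of Bcl2 and the highest levels of Bim, Bad and Bid in the DiD- group. Cells 71 and 73, with 491 and 376 CPM of Mcl1, were the 2 highest DiD- cells for that gene and had no Bim count, nor had DiD+ cell 37, with 611 CPM of Mcl1. The next highest DiD+ cells for Mcl1 did hold Bim. Cell 43 had 417 CPM of Mcl1 and 31.1 CPM of Bim, and cell 70, with a log2 balance of -0.02, had 409 CPM of Mcl1 and 50.6 CPM of Bim.

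Mcl1, Bax and Bad were counted in every cell and Bcl2l1 in all but 1, so each was found with and without Bim. Bcl2 was counted in 18 of the 23 DiD+ cells with Bim and 6 of the 9 without, and in 5 of the 8 DiD- cells with Bim and 16 of the 20 without. Noxa was counted in 4 of the 23 and 3 of the 9, and in 2 of the 8 and 2 of the 20. Cells held counts for 4 to 9 of the 10 members, with medians of 8 (DiD+) and 7 (DiD-). In level, Bim was weakly related to the other members over the 60 cells, with Spearman's rho from -0.20 with Bid to 0.24 with Bax, and -0.00 with Mcl1. The 28 pairs among the 8 members counted in at least 30 cells ran from -0.28 to 0.28, with a median of 0.03. Within a group the pairs ran wider, from -0.42 to 0.50 in DiD+ and from -0.44 to 0.50 in DiD- cells. Pooling can hide opposite signs, as Bim with Bcl2l1 was at 0.30 in DiD+ and -0.30 in DiD- cells. Bim with Bax was at 0.32 and 0.20. Cells share depth and library chemistry, and in counts this sparse such values are only a description.

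The genes most like Bim across the 60 cells, by Spearman's rho among 7543 genes that reached 10 CPM in a group and were counted in at least 30 cells, were Fnip1 (0.49), Samhd1 (0.48), Spg21 (0.47), Pura (0.47) and Sik2 (0.44). Within the groups their rho to Bim ran from 0.36 (Fnip1) to 0.55 (Sik2) in DiD+ and from 0.22 (Pura) to 0.44 (Fnip1) in DiD- cells. Fnip1, a folliculin-binding protein, was itself at 16.2 and 6.02 CPM (log2 ratio 1.30), and Samhd1, a dNTP hydrolase, at 106 and 47.9 CPM (1.14), whereas Spg21 (0.10) and Sik2 (0.04) differed little between groups.

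The other genes of the pathway were taken as 8 lists of 67 genes, of which 58 reached 1 CPM in a group. Of these, 6 were higher in DiD+ cells by 2-fold or more (10.3%, against 12.1% of all genes) and 1 was lower (1.72%, against 4.86%), and the median log2 ratio was 0.01. Without the 7 cells with macrophage RNA, 55 genes of these lists reached 1 CPM, of which 3 were higher (5.45%, against 10.4% of all genes in those cells) and none was lower (against 5.71%).

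Regulators above Bim differed in both directions. Of 8 measured upstream transcription factors, 2 were higher and 1 lower by 2-fold or more, with a median log2 ratio of 0.06. Of all genes, 12.1% were higher and 4.86% lower by this rule. FOXO factors are known to activate the Bim gene when AKT signaling is low, and here they did not move alike. Whether any of them acts on Bim in these cells was not tested. Foxo1 was counted in 18 DiD+ and 9 DiD- cells. It had 16.01 CPM in DiD+ against 6.18 CPM in DiD- cells (log2 ratio 1.24, and 1.41 without the 7 cells). Foxo3, another FOXO factor, named after its values were seen, differed little, at 15.6 and 14.3 CPM (0.12, and 0.01 without the 7 cells). Foxo4 was at 1.29 CPM (188 counts) and 0.00837 CPM (1 count), a log2 ratio of 1.18 and a 154-fold ratio without pseudocount whose counting interval ran from 27.3 to 6106, and cell 82 alone held 98.4% of its DiD+ counts. E2f1, which drives genes of S phase, was at 37.9 and 80.7 CPM (-1.07, and -0.92 without the 7 cells). Trp73 had no count. A list of 12 genes covered proteins that act on the Bim or Mcl1 protein, directly or upstream. It held kinases, the phosphatase Dusp6, ligases, a deubiquitinase and dynein light chains, and none of the 12 passed 2-fold. Of these, 10 were above 0, with a median of 0.17, and 53.2% of all genes were above 0. The largest ratio was that of the Mcl1 deubiquitinase Usp9x, at 115 and 75.7 CPM (0.60). The Mcl1 ligase Huwe1, named after its values were seen, was level with it at 66.6 and 43.6 CPM (0.60).

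Other BCL2 proteins fell into a measured and an unmeasured set. Of 4 other protecting members, 3 passed 2-fold, the near-identical copies Bcl2a1a, Bcl2a1b and Bcl2a1d, among which reads may be divided arbitrarily. Bcl2a1b had 7.29 CPM against 0.0753 CPM in DiD- cells (log2 ratio 2.95). Bcl2a1a (1.10 CPM) and Bcl2a1d (1.90 CPM) had no DiD- count, so that in reads they were at least 43.9-fold and 75.5-fold higher, against 3 counts over the DiD- group. Every count of the 3 copies lay in the cells with macrophage RNA. The list's median of 1.30 was -0.18 for the gene left, Bcl2l2, without those cells. Of the other BH3 or BCL2-like genes 5 of 10 were measured and none passed 2-fold (median -0.13), with Bok at 193 and 262 CPM (-0.44) the largest. Bmf, Hrk, Bcl2l14 and Bcl2l15, named after their values were seen, had no count in any cell. In reads alone this allows levels of up to 0.0205 CPM (DiD+) and 0.0251 CPM (DiD-). Transcripts lost before sequencing are not covered by that limit, so true levels could be higher.

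In the caspase, caspase inhibitor and outer membrane channel lists the groups were close, whereas 1 death receptor gene differed. None of 13 apoptosome and caspase genes passed 2-fold (median -0.12), with the mitochondrial nuclease Endog at 11.3 and 5.56 CPM (0.91) the largest, and none of 5 caspase inhibitors did (median 0.25), with Birc6 at 31.6 and 18.0 CPM (0.78) the one furthest from 0. Birc5, which is high in dividing cells and is named after its values were seen, was nearly as far the other way at 217 and 366 CPM (-0.75), and the median of the inhibitors was -0.05 without the 7 cells. The 3 VDAC channels of the outer membrane had a median of -0.00, which was 0.05 without the 7 cells, with Vdac1 at -0.09. In the death receptor pathway, 1 of 8 measured genes passed 2-fold (median 0.03, and -0.12 without the 7 cells). This was the receptor Fas, at 29.98 CPM (18 cells) for DiD+ and 6.95 CPM (10 cells) for DiD- (log2 ratio 1.96, and 2.43 without the 7 cells). Cell 68 held 23.7% of its DiD+ counts, at 282 CPM.

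**Figure D5:**
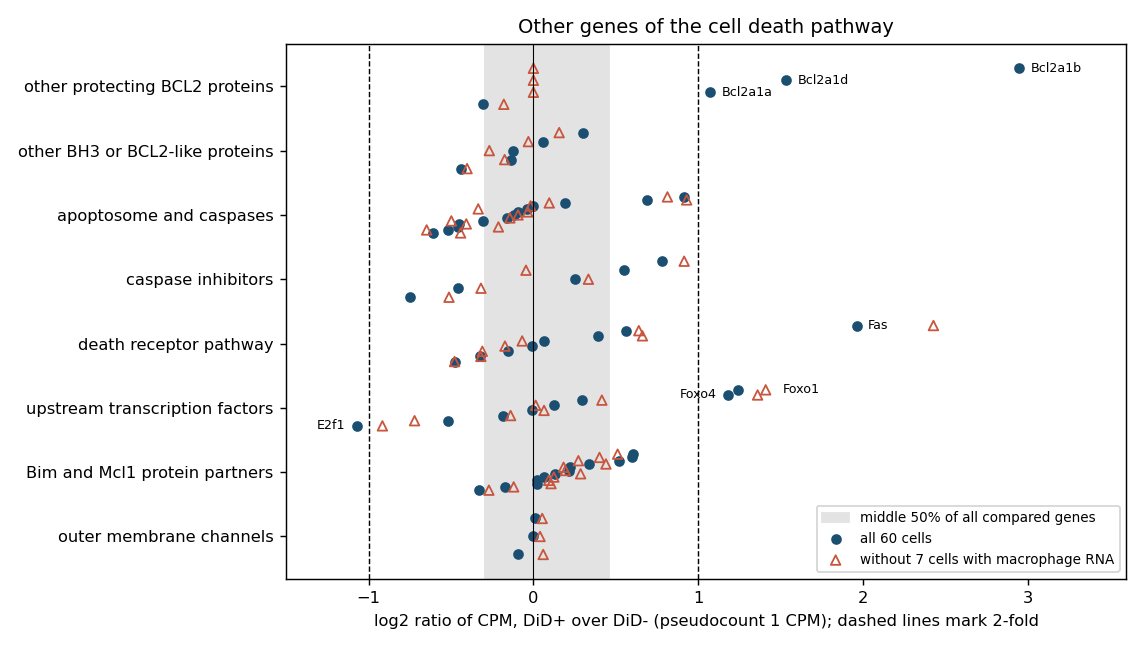
Log2 ratio of CPM in DiD+ over DiD- cells for each gene with at least 1 CPM in a group, by list, for all 60 cells (filled) and without the 7 cells with macrophage RNA (open triangles), with the middle 50% of all compared genes in gray. Names mark the 7 genes past 2-fold, and the 3 Bcl2a1 copies stand at 0 without the 7 cells.

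The ratios above are shares of mouse gene counts. Cells gave 41.6 counts per spike-in count in the DiD+ and 65.1 in the DiD- group, and scaling by the added spike-in RNA moved the median of all genes by -0.62. Relative to that median Bim was at 2.92, Mcl1 at 0.45, Bad at 0.39 and Bid at -0.56. Without that reference Bim was at 2.35 and every other member was below 0, with Bid at -1.13, Bcl2 at -0.91 and Bcl2l1 at -0.66.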

How the data were processed

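Wells sorted as single PyMT-Bo1 cells, 32 DiD+ and 28 DiD-, were grouped by their labels. Per the methods and labels, the authors trimmed reads, aligned them with STAR to GRCm38/mm10 with spike-ins and transgenes added, and deposited RSEM estimated counts for 47825 entries (47729 mouse genes, 92 spike-ins, 4 transgenes). The authors also deposited a signal table normalized with BASiCS, used only as an alternative scaling. STAR and RSEM versions are not given in the sources used here. Of the estimated counts, 96.6% were whole, and all were rounded. No column of cell values was left unused (0).

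Counts were summed per group over mouse genes and scaled to CPM. Log2 ratios used a pseudocount of 1 CPM, a minimum of 1 CPM in a group and a 2-fold rule, with exact Poisson and exact binomial (Clopper-Pearson) intervals at 95%. The limit of a count of 0 was 3 counts over the group, which covers reads and not transcripts lost before sequencing. Levels per kb used union exon lengths of GENCODE M21. A cell was said to hold macrophage RNA with at least 7 of 13 markers at 10 or more counts. Such wells may hold more than 1 cell, doublets were not called, and no cell was left out of the main values. The members and lists were chosen with earlier results of these data known. The text names the 10 members, list genes past 2-fold or else the one furthest from 0, and the 5 genes most correlated with Bcl2l11. Alternatives were other scalings, pseudocounts, minimums and lengths, thinning, and leaving out cells. The ratio steps were tested on simulated data. The authors' BASiCS test was not repeated, because cells of 1 pool are not replicates. Python 3.11.15, numpy 2.4.6, pandas 2.3.3, scipy 1.17.1, matplotlib 3.10.9, Biopython 1.88 and R 4.3.3 were used, and scaling factors alone came from edgeR 4.0.16 and DESeq2 1.42.0.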

Additional observations from a re-analysis of the deposited data

How the results depend on the processing

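The Bim log2 ratio of 2.88 stayed above 2-fold in every alternative tried. It was 2.35 with spike-in scaling, 3.20 without the 7 cells with macrophage RNA, and 3.32 and 1.40 with pseudocounts of 0.1 and 10 CPM, where the pseudocount enters the ratio by construction. With edgeR or DESeq2 factors, BASiCS values, the mean of each cell's CPM, thinning or unrounded counts it moved by less than its counting interval. Leaving out each cell gave 2.75 to 3.10. The count of 1 member past 2-fold was 2 with spike-in scaling, the second being Bid, and 1 in each fit with a cell left out (1 to 1). The balance of pro-death and survival members, DiD+ over DiD-, of -0.25 became -0.0871 without the 7 cells, -0.13 without 10 cells that held many markers of any blood cell or platelet list (chosen after seeing the data), -0.18 with the length of the longest coding transcript, -0.18 with no length, 0.27 as a difference of medians, and -0.40 to -0.14 with a cell left out. The median of the other protecting BCL2 genes turned from 1.30 to -0.18 without the 7 cells, since 3 of its 4 genes had counts in those cells alone. No paired analysis was possible because the labels pair no DiD+ cell with a DiD- cell. Without those cells the medians of the caspase inhibitors, the death receptor pathway and the VDAC channels also changed sign. Depth limits Bak1 and genes near 0.0251 CPM, Noxa rests on few cells, and with 1 pool of mice no difference between mice can be estimated.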
